A study of Mus musculus with 384 samples.

Results

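The samples described here are 32 mouse brain samples labelled CER, dCA3 or vCA3 in which the normalized value of *Ociad2* was under 1200. They were chosen by that value, out of 96 samples with these region labels and out of 380 samples with values in the series. The other 64 samples with these labels, all above 1200, are called *Ociad2*-high. The study measured genes tied to the glucocorticoid receptor and to psychiatric risk by TruSeq Targeted RNA sequencing, in which a short piece of each chosen transcript is amplified and its reads are counted. The table holds 69 assays of 1 gene each, in 12 region labels and 32 mice.

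All samples came from male Balb/c mice, and the titles split the mice into 4 label groups of 8 mice by status (MS or Co) and injection (inject or naive). The study's methods name CER as cerebellum and dCA3 and vCA3 as the dorsal and ventral CA3 field of the hippocampus. They describe a good or a poor early rearing environment followed by a supportive or an aversive social environment in adulthood. Neither the labels nor the methods say what MS, Co, inject and naive mean in those terms, so the groups are compared by their labels only. The age label reads postnatal day 9 for every sample, whereas the methods describe tissue from adult mice. Litter and cage are not given in the labels. The label Pit is not among the regions that the methods list, which name the nucleus accumbens instead, and the table's numbers of assays and samples are not those of the methods, so it was not checked how far the methods hold for these samples.

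Each label group held 8 *Ociad2*-low samples, namely 2 labelled CER, 2 labelled dCA3 and 4 labelled vCA3. They came from 25 of the 32 mice. Of these mice 19 gave 1 sample, 5 gave 2 and 1 gave 3, so samples of 1 mouse are not independent. In the library preparation as described for the study, a plate column held 8 samples, 2 of each experimental group, and the *Ociad2*-low samples numbered 8, 8 and 16 by region label. Which samples shared a plate column is not given in the labels, and the part of the plate column in any result below was not tested. Whether the region labels of the *Ociad2*-low samples name the tissue they came from could not be checked here, so every value by region label is by the label as given.

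Ociad2 is a protein of the mitochondrial and endosomal membranes. The glucocorticoid receptor, encoded by *Nr3c1*, is held by the chaperone Hsp90 until it binds the stress hormone, moves to the nucleus and changes transcription. *Fkbp5*, a co-chaperone that lowers the receptor's affinity for hormone, is among its best known target genes. The hippocampus is rich in this receptor and takes part in shutting off the hormonal stress response. The assays otherwise cover housekeeping and signalling genes, and no assay is a defining marker of the cerebellum or of CA3, so the region labels could not be checked against such markers.

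*Ociad2* is a minus-strand gene of chromosome 5, at 73322199 to 73341028 in GRCm38 (GENCODE M21). Its normalized values, which are reads divided by the library's size factor, ran from 392 to 843 with a median of 659 in the 32 samples. In the 64 *Ociad2*-high samples they ran from 1750 to 3780. The members nearest the threshold were at 772, 799 and 843, and the nearest samples outside it were at 1750, 1876 and 1952, so no sample lay between 843 and 1750. Within the low samples *Ociad2* ran from 468 to 843 in Co inject (median 662), from 615 to 772 in Co naive (median 679), from 608 to 799 in MS inject (median 674) and from 392 to 631 in MS naive (median 603). These values chose the samples and are given without a test. Under some other region labels values below 1200 were common, with *Ociad2* medians of 1079 in AMY, 945.5 in BNST, 1142 in dDG and 926 in vDG. The medians of PFC and Pit were 1222 and 1248. Such values were fewer in PVN (4 of 30 samples, median 2697), dCA1 (7 of 32, median 2682) and vCA1 (10 of 32, median 1889).

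**Figure D1:**
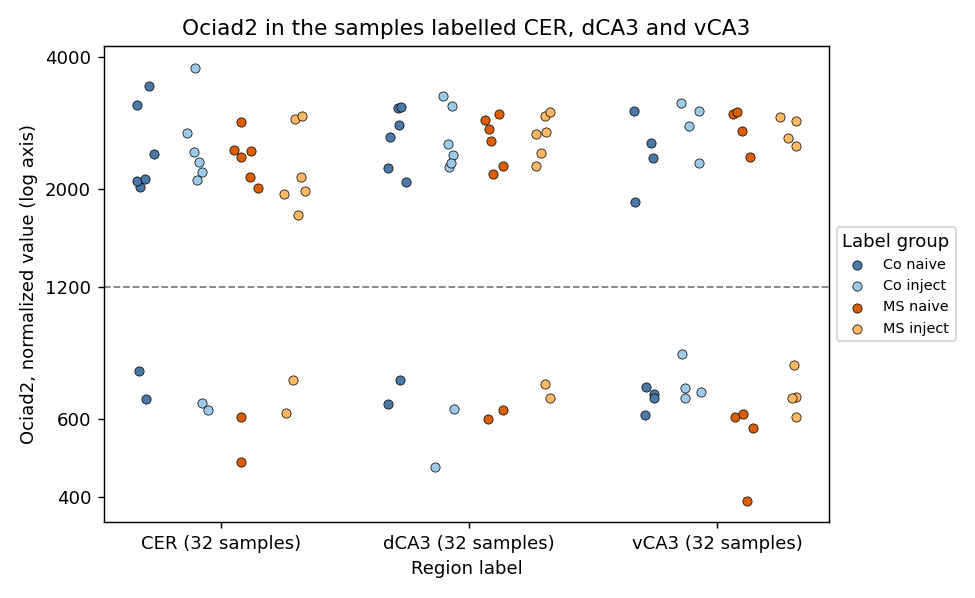
Normalized *Ociad2* value (log axis) of the 96 samples by region label, each point 1 sample coloured by label group. The dashed line is the threshold of 1200, with 8 CER, 8 dCA3 and 16 vCA3 samples under it, 2, 2 and 4 from each label group.

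The 32 libraries held 83529 to 217926 reads (median 171454.5), against 109557 to 259606 in the *Ociad2*-high samples. Median reads were 174023.5 in Co inject, 179274.5 in Co naive, 176918 in MS inject and 163769 in MS naive. A count of 3 reads corresponds to a value of 1.27 to 3.43, depending on the library, and values under it are at the limit of detection. Of all values of the low samples, 3.31% were 0, from 12 genes. Assays differ in how well they amplify, so values are compared between samples of 1 gene and not between genes.

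Comparing MS with Co, inject with naive and their interaction showed no gene past the threshold in the *Ociad2*-low samples. Each comparison was fitted with limma on log2(value + 1) for 68 genes, *Ociad2* left out, with the region label as a term and the mouse as a random block. A gene was called at a Benjamini-Hochberg adjusted p under 0.1. For status 0 of 68 genes were called (0%), 0 had an unadjusted p under 0.05 and the smallest adjusted p was 0.982. For injection 0 of 68 were called (0%), 2 had an unadjusted p under 0.05, namely *Higd1a* and *Ctnnb1*, and the smallest adjusted p was 0.926. For the interaction 0 of 68 were called (0%), 0 had an unadjusted p under 0.05 and the smallest adjusted p was 0.814. In each of these 68 genes the range of the MS samples overlapped that of the Co samples, and the range of the inject samples that of the naive samples. No other tool was run.

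The intervals show what size of difference these samples could hold. The 95% interval of the status difference lay within 0.5 of 0 on the log2 scale for 45 of 68 genes and within 1, a 2-fold change, for 59. For injection 44 genes lay within 0.5 and 56 within 1. The interaction was known less well, with 14 genes within 0.5 and 40 within 1. The median width to each side was 0.31 for status, 0.31 for injection and 0.62 for the interaction. *Tm2d1*, a membrane protein gene that binds amyloid peptide in its human form, had the narrowest interval of each comparison (0.12 to each side for status). *Lcn2*, a secreted iron-siderophore binding protein of inflammation, had the widest (1.42 to each side for status), so a change of more than 2-fold in it was not excluded by these samples.

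**Figure D2:**
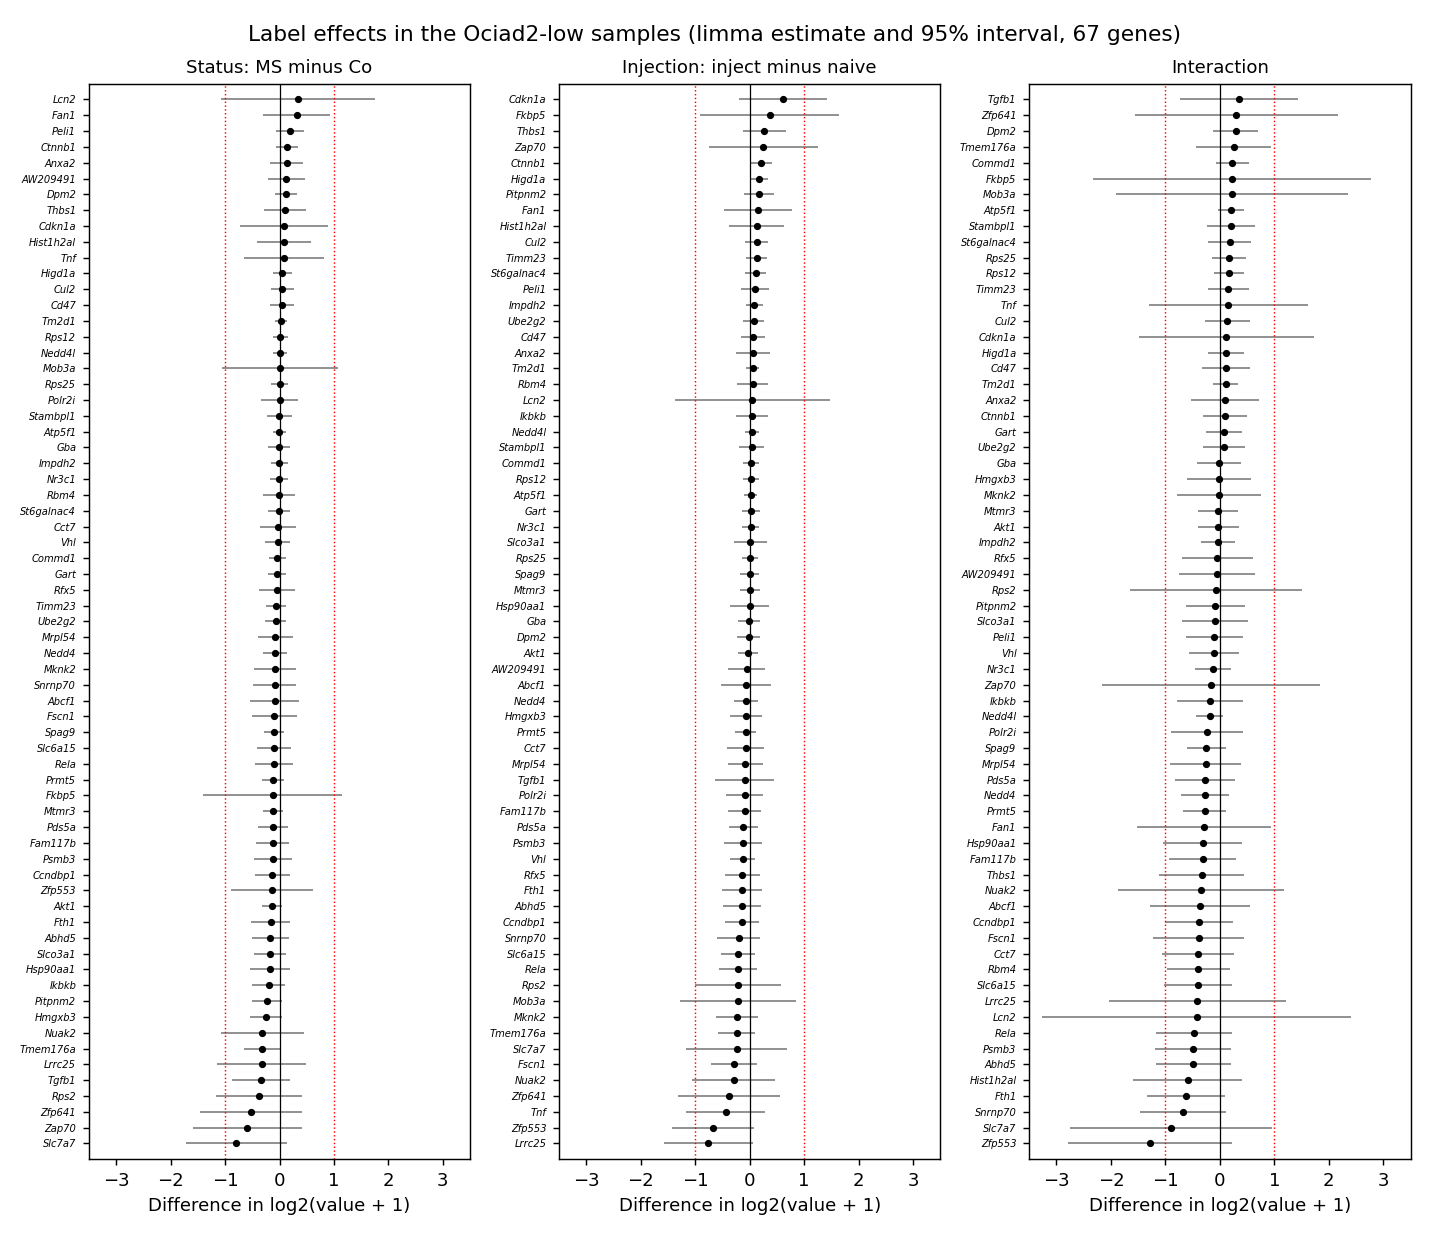
Differences in log2(value + 1) for status, injection and interaction in the 32 *Ociad2*-low samples, with the limma estimate as a point and the 95% interval as a line for 67 of the 68 genes. Dotted lines mark 2-fold, and 58, 55 and 40 of the genes shown have their whole interval between them, and no gene passed the threshold.

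Of the mitochondrial genes, *Higd1a* and *Atp5f1* fell under the rule for named genes. *Higd1a* (minus strand of chromosome 9, 121848563 to 121858362) encodes a hypoxia-induced protein of the respiratory chain. It ran from 932 to 1555 in Co inject (median 1210) and from 781 to 1385 in Co naive (median 1077). In MS inject it ran from 1077 to 1554 (median 1243), and in MS naive from 831 to 1320 (median 1046). The inject samples lay mostly higher, with 14 of 16 above the median of the naive samples, but the ranges overlapped. Here and below such counts are of samples, some of which came from the same mouse. The injection difference was 0.17 (SE 0.08, 95% interval 0.0036 to 0.34, limma adjusted p = 0.926), and 0.12 without Co inject mouse 233.

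*Atp5f1*, a subunit of the ATP synthase (minus strand of chromosome 3, 105942698 to 105960099), varied least of all genes in the low samples, with an SD of 0.12 on the log2 scale. Its values were 12726 to 16413 in Co inject (median 14467), 13248 to 16946 in Co naive (median 15166), 13331 to 17076 in MS inject (median 15674) and 12194 to 16288 in MS naive (median 14153). The inject median was thus above the naive one in MS and below it in Co. The interaction was 0.21 (95% interval -0.03 to 0.44, adjusted p = 0.814). Of the 4 mitochondrial genes tested, 0 were called in any of the 3 comparisons. Their median difference was -0.03 for status, 0.07 for injection and 0.14 for the interaction, beside -0.06, -0.01 and -0.09 over all 68 genes. With values rescaled to the same total the medians over all genes were -0.0032, -0.0045 and 0.0096, so the sign of the interaction's median depends on the scaling.

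Of the receptor and chaperone list, 4 of 7 genes were measured and 0 were called. *Nr3c1* ran from 414 to 685 in Co inject (median 499.6), from 427 to 550 in Co naive (median 495), from 446 to 554 in MS inject (median 494) and from 403 to 753 in MS naive (median 483). The 4 medians lay close together and the groups overlapped throughout. The status difference was -0.01 (95% interval -0.17 to 0.16), the injection difference 0.02 (-0.15 to 0.18) and the interaction -0.13 (-0.45 to 0.20).

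*Fkbp5*, the receptor's target gene, was looked at after its values had been seen. It ran from 0 to 44.0 in Co inject (median 16.9), from 0 to 29.4 in Co naive (median 12.2), from 2.49 to 40.8 in MS inject (median 12.5) and from 0.829 to 73.2 in MS naive (median 6.50). Its SD over the 32 samples was 1.65 on the log2 scale, the largest of all genes after *Lcn2* at 1.80. It was at 0 in a dCA3 sample of Co inject and in a vCA3 sample of Co naive, and highest in a vCA3 sample of MS naive, and the 4 groups overlapped. Its injection difference was 0.37 with a 95% interval from -0.91 to 1.64 (adjusted p = 0.926). The median over the 32 samples was 12.2, and over the *Ociad2*-high samples 79.4, a level difference given without a test.

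Genes of growth control and signalling included the other gene with an unadjusted p under 0.05 for injection. *Ctnnb1*, which encodes beta-catenin of the Wnt pathway and of cell junctions (plus strand of chromosome 9, 120929216 to 120960507), ran from 3683 to 6712 in Co inject (median 4649) and from 3134 to 6067 in Co naive (median 4271). In MS inject it ran from 4492 to 6124 (median 5497), and in MS naive from 3148 to 5931 (median 4694). MS inject had the highest median, and its range overlapped those of the other groups. The injection difference was 0.20 (SE 0.10, 95% interval 0.0021 to 0.40, limma adjusted p = 0.926), and 0.13 without Co inject mouse 233.

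*Cdkn1a*, the cell cycle inhibitor p21 that glucocorticoids and DNA damage can induce (plus strand of chromosome 17, 29090976 to 29100727), ran from 41.4 to 167 in Co inject (median 81.3) and from 36.6 to 129 in Co naive (median 52.7). It ran from 24.2 to 203 in MS inject (median 126) and from 6.63 to 249 in MS naive (median 71.4). MS naive held both the lowest and the highest of the 32 values. The injection difference was 0.61 with a 95% interval from -0.20 to 1.42 (adjusted p = 0.926), and 12 of 16 inject samples lay above the median of the naive ones. It was 0.37 without MS naive mouse 103. In the vCA3 samples alone it was -0.03, and in the CER and dCA3 samples alone 1.16 (adjusted p = 0.932); the difference between these was not tested. The kinase gene *Akt1* had a status difference of -0.14 (-0.33 to 0.05). *Fscn1*, an actin-bundling protein, had an injection difference of -0.29 (-0.71 to 0.13). Of the 8 genes in the list, 0 were called in any comparison.

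Iron metabolism is represented by *Fth1*, the heavy chain of ferritin (plus strand of chromosome 19, 9980598 to 9985098). It ran from 9497 to 27879 in Co inject (median 18232), from 10044 to 39202 in Co naive (median 14725), from 10151 to 18277 in MS inject (median 12973) and from 13083 to 30800 in MS naive (median 16751). MS inject had the lowest median and the narrowest range, within the range of each Co group. The interaction was -0.62 (95% interval -1.34 to 0.10, adjusted p = 0.814).

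Of the transcription and RNA processing genes, *Zfp553*, a zinc finger gene (plus strand of chromosome 7, 127233061 to 127238179), had the largest interaction in size, at -1.29 (-2.79 to 0.21, adjusted p = 0.814), and ran from -1.71 to -0.55 over the alternatives. It ran from 0 to 18.2 in Co inject (median 5.09), from 1.40 to 10.7 in Co naive (median 6.17), from 0 to 4.57 in MS inject (median 3.22) and from 2.92 to 18.6 in MS naive (median 7.35). The 32 libraries held 327 reads of *Zfp553* in all, and 1 sample each of Co inject and MS inject had none. Within MS mice the inject samples differed from the naive ones by -1.32 (95% interval -2.38 to -0.27, limma adjusted p = 0.614), and within Co mice by -0.03. These differences within a status were not among the 3 planned comparisons and are given for this gene only. The interval is not adjusted for the number of genes, and the MS inject values lay near the limit of 3 reads.

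*Snrnp70*, a protein of the U1 spliceosomal particle, had an interaction of -0.68 (-1.47 to 0.12). *Prmt5*, an arginine methyltransferase, had one of -0.28 (-0.67 to 0.11), which was -0.15 without MS naive mouse 89. *Hmgxb3*, an HMG-box gene, had a status difference of -0.25 (-0.54 to 0.04). Of the 10 genes of the list 0 were called.

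Of the 12 genes in the ubiquitin list 7 were measured and 0 were called. *Peli1*, a ubiquitin ligase of innate immune signalling, had a status difference of 0.20 (-0.07 to 0.46), and 13 of 16 MS samples lay above the median of the Co samples. *Commd1*, a regulator of copper and of NF-kappaB, had an interaction of 0.23 (-0.07 to 0.53), which was 0.13 without MS inject mouse 81. *Nedd4l*, a ligase that acts on sodium channels, had one of -0.19 (-0.44 to 0.06).

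Of 6 lipid and glycan genes 0 were called. *Pitpnm2*, a phosphatidylinositol transfer protein, had a status difference of -0.23 (-0.51 to 0.04) and *Mtmr3*, a phosphoinositide phosphatase, one of -0.12 (-0.31 to 0.06). For each of them the interval included 0 and lay within 1 on either side.

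Among the membrane protein genes *Tmem176a* had the smallest p for status. It is a channel-like protein known from immune cells (plus strand of chromosome 6, 48840919 to 48847071). It ran from 35.3 to 80.2 in Co inject (median 63.9), from 64.4 to 118 in Co naive (median 72.1), from 33.7 to 75.5 in MS inject (median 51.3) and from 29.8 to 105 in MS naive (median 56.1). Co naive stood highest, with its lowest sample above the median of each other group. The status difference was -0.32 (SE 0.17, 95% interval -0.66 to 0.03, limma adjusted p = 0.982), and 3 of 16 MS samples lay above the median of the Co samples. *Anxa2*, a calcium-dependent membrane-binding protein, had a status difference of 0.13 (-0.18 to 0.44) and an injection difference of 0.06 (-0.25 to 0.37). Its status difference was 0.06 without Co inject mouse 249 and 0.22 without Co naive mouse 229. Of the 5 genes of the list 0 were called.

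**Figure D3:**
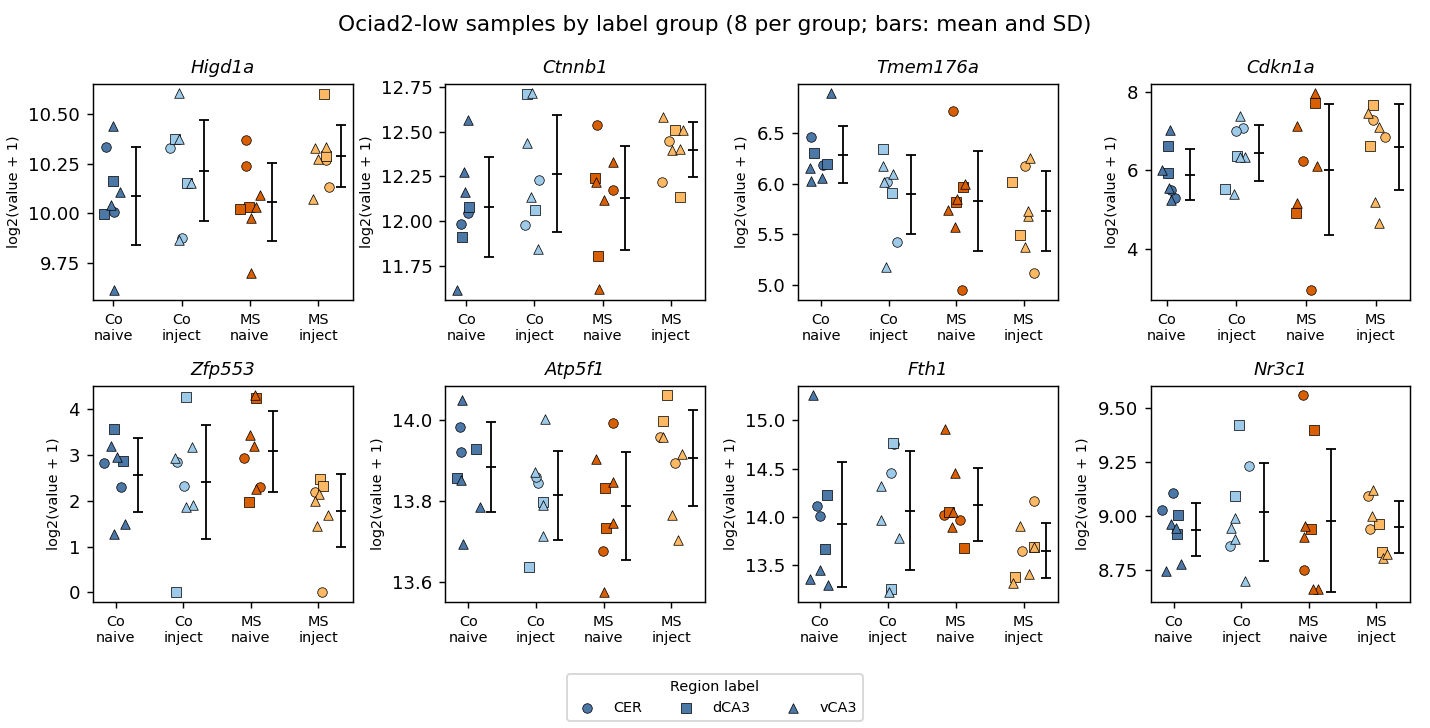
Values of 8 genes on the log2(value + 1) scale in the 32 *Ociad2*-low samples by label group, with the mean and SD of the 8 samples of each group beside the points and the region label as the point's shape. In each of the 8 genes the ranges of the 4 groups overlap.

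Of 9 immune and secreted genes listed 7 were measured and 0 were called. Their medians ran from 0 in *Tnf* to 8779 in *Cd47*, a signal to phagocytes. *Slc7a7*, a cationic amino acid transporter of phagocytes, ran from 0 to 28.7 in Co inject (median 19.7), from 4.82 to 25.5 in Co naive (median 13.1), from 0 to 20.2 in MS inject (median 6.26) and from 0 to 41.0 in MS naive (median 12.2). Its status difference was -0.79 (-1.72 to 0.13), with an adjusted p of 0.982, and ran from -1.11 to -0.19 over the alternatives. *Lrrc25*, a leucine-rich repeat protein of myeloid cells, was at 0 in 11 of the 32 samples and had an injection difference of -0.76 (-1.57 to 0.05). Over the alternatives this difference ran from -1.63 to -0.18. *Tnf*, a cytokine of activated microglia, was at 0 in 23 samples and reached 6.90. *Nuak2*, a stress-activated kinase, was at 0 in 16 samples and reached 6.81. The 32 libraries held 109 reads of *Lrrc25*, 46 of *Tnf* and 78 of *Nuak2* in all.

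The cytosolic translation list was measured in full, with 0 of 5 genes called in any comparison. *Rps12*, of the small ribosomal subunit, had medians of 11534 in Co inject, 12228 in Co naive, 12107 in MS inject and 11072 in MS naive. Its status difference was 0.01 (-0.13 to 0.15). Along with *Atp5f1*, *Tm2d1* and *Nedd4l* it was among the 4 genes that varied least.

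Whether the label effects were other in the *Ociad2*-low than in the *Ociad2*-high samples was tested as a difference of effects over all 96 samples (limma). For status 0 of 68 genes were called (0%), 2 had an unadjusted p under 0.05 and the smallest adjusted p was 0.950. For injection 0 of 68 were called (0%), 3 had an unadjusted p under 0.05 and the smallest adjusted p was 0.818. For the interaction 0 of 68 were called (0%), 4 had an unadjusted p under 0.05 and the smallest adjusted p was 0.484. The 3 genes for injection were *Ctnnb1*, *Higd1a* and *Tmem176a*. *Ctnnb1* and *Higd1a* also had the smallest p for injection in the low samples. This test uses the same low samples again, so it is no separate support for them. In *Ctnnb1* the injection effect in the low samples exceeded that in the high samples by 0.36 (SE 0.15, adjusted p = 0.818), and in *Higd1a* by 0.28 (SE 0.12, adjusted p = 0.818). In both genes the estimate in the high samples was below 0, at -0.13 and -0.10 (limma adjusted p = 0.912 for each). The difference between low and high samples in *Tmem176a* went the other way, at -0.36 (SE 0.18, limma adjusted p = 0.910).

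The region label was then asked about, since the low samples carry 3 of them. Within the low samples 0 of 68 genes were called by region label (0%, moderated F test in limma), 5 had an unadjusted p under 0.05 and the smallest adjusted p was 0.551. Those 5 were *Slc7a7*, *Rps2*, *Nr3c1*, *Rfx5* and *Gart*. Within the *Ociad2*-high samples the same test called 20 of 68 genes (29.4%), from 64 samples in place of 32. The counts alone do not show that the labels differ less in the low samples, so the difference between the sets was tested, a test added after seeing the data. It called 2 of 68 genes (2.94%), *Tmem176a* with an adjusted p of 0.0491 and *Fth1* with 0.0741.

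*Tmem176a* had medians of 67.5 in CER, 62.8 in dCA3 and 63.6 in vCA3 within the low samples. Within the high samples they were 300.4, 303 and 185, with vCA3 ranging from 94.2 to 300.4 and the other labels from 153 to 511. *Fth1* had medians of 17121, 13140 and 14635 within the low samples, and of 28972, 30245 and 57188 within the high ones. In the high samples the vCA3 median was the lowest of the labels for *Tmem176a* and the highest for *Fth1*, with overlapping ranges, while in the low samples it lay between or beside those of CER and dCA3. The number of called genes was 13 with values rescaled to the same total, 25 with the reads per library as a covariate and 1 at a threshold of 0.05. Median reads of the low samples were 166317 in CER, 154404 in dCA3 and 194064.5 in vCA3.

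**Figure D4:**
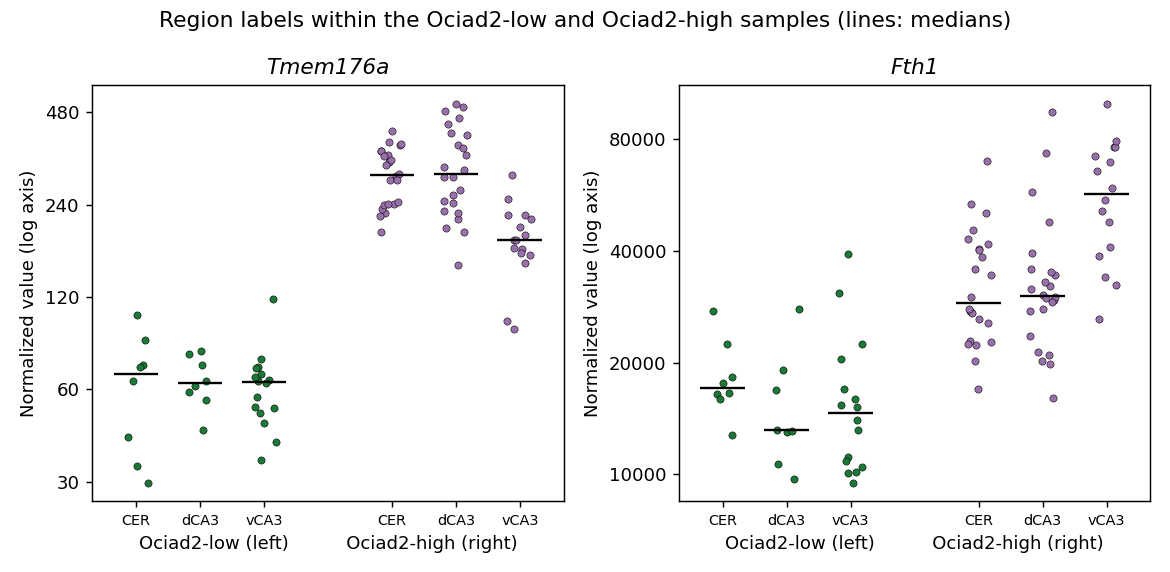
Normalized values (log axis) of *Tmem176a* and *Fth1* by region label in the *Ociad2*-low (8, 8 and 16 samples) and *Ociad2*-high samples (24, 24 and 16), with lines at the medians. In the low samples the medians of *Tmem176a* lie between 62.8 and 67.5, while in the high samples vCA3 lies at 185 and the other labels at 300.4 and 303.

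The likeness of samples was described by Pearson's r of log2(value + 1) across 68 genes, *Ociad2* left out. It had a median of 0.970 over the 496 pairs of low samples. A pair of 1 low CER and 1 low dCA3 sample had a median r of 0.972, and a low CER and a low vCA3 sample 0.969. With the *Ociad2*-high samples of their own label the medians were 0.937 for CER, 0.921 for dCA3 and 0.919 for vCA3. Pairs of *Ociad2*-high samples of 1 label had medians of 0.974 in CER, 0.955 in dCA3 and 0.944 in vCA3, so pairs within the low samples were not closer than every kind of pair within the high ones. The points share their libraries and genes differ much in level, and other genes can go with *Ociad2*, which split the sets, so these values are a description.

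Over the 47 genes whose median reached 100, most of the spread among the 32 samples lay along 1 axis. It was looked at after seeing the data. The first principal component held 61.5% of the variance of these genes and the second 6.45%. Genes with lower medians were left out of the component, among them *Lcn2* and *Fkbp5*, which varied most of all genes. Among the genes with high weights were *Abcf1* of translation, *Fth1*, the proteasome gene *Psmb3* and the chaperone gene *Hsp90aa1*. *AW209491*, *Cul2* of ubiquitin ligase complexes, the deubiquitinase gene *Stambpl1*, *Peli1* and *Ctnnb1* had the lowest. Scores ran from -3.27 to 2.28 in Co inject (median 0.92), from -2.63 to 4.71 in Co naive (median -0.14), from -2.34 to 0.65 in MS inject (median -0.90) and from -1.503 to 4.99 in MS naive (median -0.19). The highest scores belonged to vCA3 samples of MS naive mouse 89 and Co naive mouse 251, and the groups overlapped. With both samples left out, 0 genes were called in each of the 3 comparisons.

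**Figure D5:**
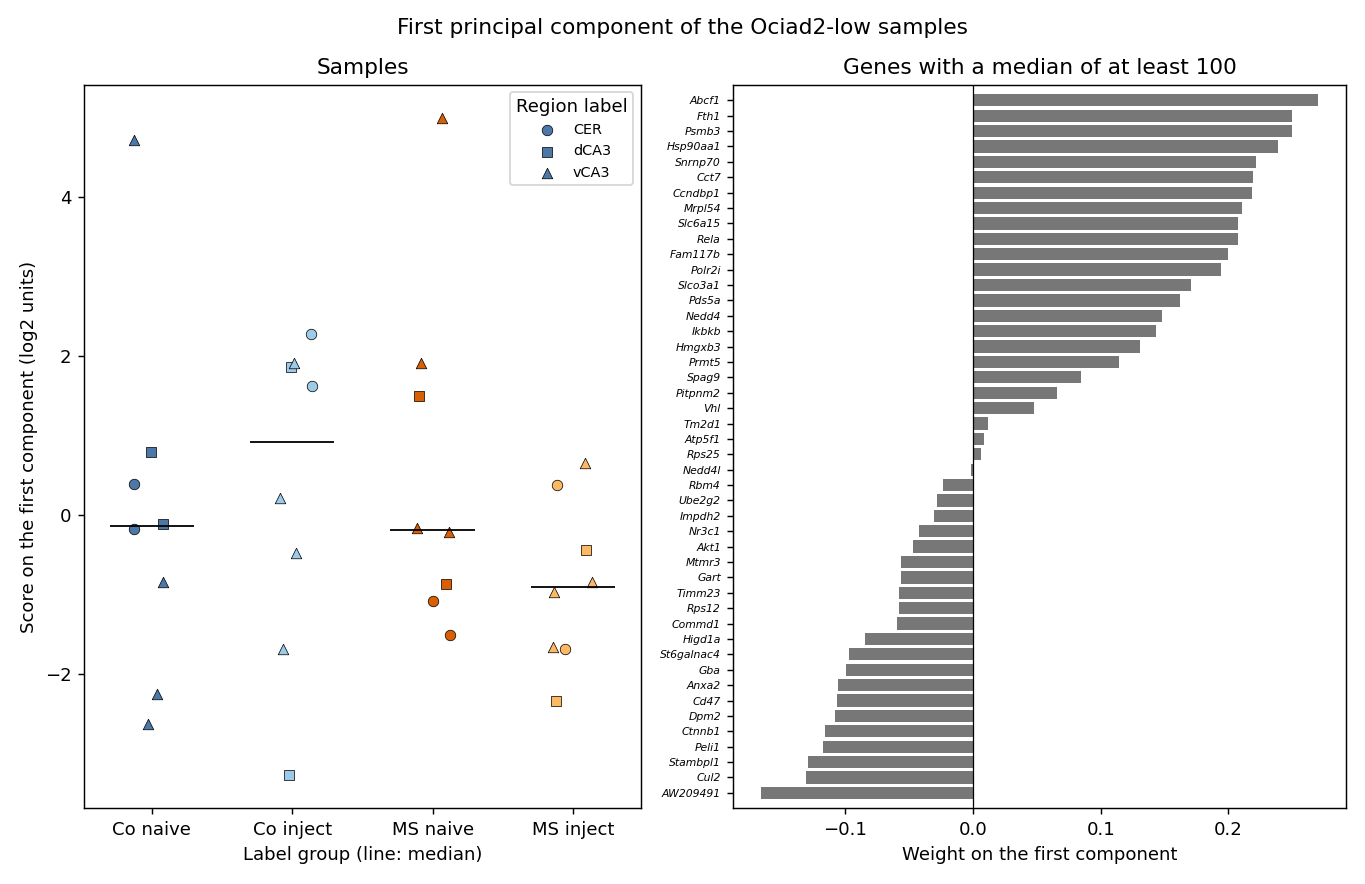
Scores of the 32 *Ociad2*-low samples on the first principal component by label group (left, line at the median, shape for region label) and the weights of 46 of its 47 genes (right). MS inject reaches 0.65 at most, while the other groups reach 2.28, 4.71 and 4.99.

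*Fth1*, a gene of high weight, also varied within most of the 6 mice that had more than 1 low sample. In Co inject mouse 233 *Fth1* was 22486 in CER, 9717 in dCA3 and 9497 in vCA3. In MS naive mouse 89 it was 16922 in dCA3 and 30800 in vCA3, and in MS inject mouse 95 it was 13198 in dCA3 and 13189 in vCA3. The other 3 mice had CER and vCA3 samples, with 17663 and 10477 in Co naive mouse 229, 16462 and 10044 in Co naive mouse 253, and 12756 and 10151 in MS inject mouse 81. The 2 samples were nearly equal in mouse 95, and in each of the 4 mice with a CER sample CER was the highest.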

How the data were processed

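Micropunches from frozen brains were profiled by TruSeq Targeted RNA sequencing on a MiSeq, in 384 samples of the labels, of which 380 have values. The authors removed short and low-quality reads, aligned the rest with BWA to the assay manifest and normalized with DESeq2. The submitters' notes name the build mm10. The deposited signal values are reads per assay divided by a size factor; in every library all values were whole multiples of 1 step (26220 of 26220 within 0.0001 reads), which gave the reads per library. Those reads were used for depth, for the limit of 3 reads, for totals of low genes and as a covariate of 1 alternative, and not in a count test. A limit from reads covers counting error only, because amplified reads are copies of fewer molecules.

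Samples were grouped by title. The 32 *Ociad2*-low samples and the gene lists were chosen with earlier results of these data known. limma 3.58.1 with statmod 1.5.0 (R 4.3.3) was fitted to log2(value + 1) without a filter on low values, with the means of the 4 label groups, the region label and the mouse as a random block by duplicateCorrelation, with a trend in the variance. The terms are those of the labels. The false discovery rate of 10% is the paper's, which fitted each region by itself with a linear or negative binomial model and surrogate variables; here region labels were pooled and no surrogate variables were used. p-values measure the spread between these mice and samples only. The same fit over all 96 samples gave the differences between *Ociad2*-low and *Ociad2*-high effects. Steps were tested on simulated data. Python 3.11.15, pandas 2.3.3, numpy 2.4.6 and matplotlib 3.10.9 did the rest.

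Named genes were the called genes, the 7 genes with the smallest p of each of the 3 comparisons, *Ociad2*, *Nr3c1*, *Cdkn1a*, *Anxa2*, *Tmem176a*, the top 3 and bottom 3 genes by median, and the list members by count; others are said to be chosen later. Samples of 1 mouse are paired by the mouse number in the titles. Their deviations from the group means correlated with a median r of 0.03 (8 pairs, -0.50 to 0.37), against -0.15 between other mice of the group (104 pairs). The estimated correlation within a mouse was 0.24 in the fit of the low samples and -0.06 in the fit of all 96 samples. Alternatives were other pseudocounts (0.1 and 10), a mean value of at least 10, the paper's gene table, no region term, no block, 1 value per mouse, rescaled totals, reads as a covariate, 5 principal components, a threshold of 0.05, CER and dCA3 or vCA3 samples only and leaving out each mouse. Count tests planned as alternatives were not run, since 69 assays hold too few low values per library to check the recovered reads as such a test requires. The results of 1 gene of the table are not reported here, and it is left out of the plots of genes.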

Additional observations from a re-analysis of the deposited data

Results flagged for a closer look

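In each label group of 8 samples the highest or lowest sample of each named gene was compared with the others by Dixon's criterion, for 104 groups in all. In 10 of them 1 sample stood apart. Chance gives about 1 in 20 groups where the 8 values are independent and normally distributed. Here samples shared mice, genes shared libraries and region labels were mixed, so the number of flags cannot be set against that rate. In the 2 *Tnf* groups every other sample was at 0, so any value stands apart. The flagged values of *Zfp553* and *Slc7a7* were themselves 0, under the limit of 3 reads. The vCA3 sample of Co naive mouse 251 was the sample in 3 of the 10 groups, with *Commd1* at 715 (the others 933 to 1061), *Mtmr3* at 227 (285 to 340) and *Fth1* at 39202 (10044 to 19114). The CER sample of MS inject mouse 85 was the sample in 3 others, with *Fscn1* at 133 (57.8 to 85.3), *Snrnp70* at 72.3 (131 to 223) and *Zfp553* at 0 (1.73 to 4.57). *Snrnp70* stood at 470 in the vCA3 sample of MS naive mouse 89 (the others 155 to 251), and *Slc7a7* at 0 in the dCA3 sample of Co inject mouse 233 (10.7 to 28.7). *Tnf* was at 1.40 in the vCA3 sample of Co inject mouse 243 and at 6.90 in that of MS inject mouse 81, with 0 in the other samples of those groups.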

How the results depend on the processing

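Status, injection and interaction each had 0 called genes under every alternative run. Leaving out each of 25 mice in turn gave 0 to 0 in each comparison, with smallest limma adjusted p values of 0.468, 0.729 and 0.332. Over all alternatives the genes followed through them reached limma adjusted p values of 0.435 for status and 0.588 for injection. The mouse number pairs the samples here. Without the block for mice the counts were 0, 0 and 0 as well, with 0, 4 and 0 genes at an unadjusted p under 0.05, and the block changed no other call. Effects that differed between *Ociad2*-low and *Ociad2*-high samples numbered 0 in each of the 7 alternatives run for them, as did genes called by region label within the low samples. Mice were not left out in turn for these counts. The genes whose region label differences differed between the sets were 13 with rescaled totals, 25 with reads as a covariate and 1 at a threshold of 0.05, alternatives of a test added after seeing the data; the cause of the first 2 was not tested. In the CER and dCA3 samples alone only 1 mouse had more than 1 sample, so no correlation within mice was estimated.

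Some differences changed sign, among them the injection difference of *Cdkn1a* (0.61 over all samples). The status difference of *Nr3c1* was 0.00586 with 1 value per mouse and 0.0531 with rescaled totals, and -0.0464 to 0.0189 with a mouse left out. Its injection difference was -0.00499 with 1 value per mouse, -0.0327 in CER and dCA3 samples, -0.00106 without the 2 samples of highest score (chosen after seeing the data), and -0.0107 to 0.0569 with a mouse left out. For *Cdkn1a* status was -0.0303 with 1 value per mouse and -0.167 to 0.317 with a mouse left out, and injection -0.0336 in vCA3 samples. For *Anxa2* injection was -0.0800 in CER and dCA3 samples and -0.0148 to 0.149 with a mouse left out. The other differences followed through the alternatives, namely those of the 7 genes with the smallest p of each comparison and of *Tmem176a* and *Anxa2* (the latter for status), kept their sign wherever they had a value, though some shrank by more than 1.5 times, such as *Atp5f1* interaction (0.07 to 0.31), *Peli1* status (0.06 to 0.27), *Pitpnm2* status (-0.33 to -0.08) and *Fscn1* injection (-0.51 to -0.11). The planned count tests (edgeR and DESeq2) were not run. With 8 samples a group, the median interval of the interaction reached 0.62 on the log2 scale to each side of the gene's own estimate. Genes of a few reads allow changes of more than 2-fold.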
